A study of Mus musculus with 4 samples.

Results

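Complement components and receptors were followed as a family of 9 genes, C1qa, C1qb, C1qc, C3, C4b, Cfb, Cfp, C3ar1 and C5ar1, of the 31053 genes counted. The genes were taken by symbol, whatever their level, and all 9 were present in every library. The libraries hold immune cells that had infiltrated brain tumours of C57BL/6 mice, taken once the animals were symptomatic, and were read by droplet single-cell RNA sequencing. The tumours were genetically engineered gliomas that carried wild-type IDH1 (wtIDH1, 2 libraries) or mutant IDH1 (mIDH1, 2 libraries). IDH1 is a metabolic enzyme, and its mutant form makes D-2-hydroxyglutarate. The other alleles of the tumours, the ages of the mice and the gate or enrichment behind the immune cells are not given in the sources used here, and neither is whether the libraries came from separate animals. The p-values for genotype within a class therefore measure only the spread between these libraries. Those of tests with library as a block rest, in the same libraries, on the spread left among class sums after library and class are accounted for. Levels are given in 5 classes of cells picked by marker genes, namely macrophages, microglia, monocytes, neutrophils and tumour cells, none of whose markers is a complement gene.

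Complement is a cascade of plasma and tissue proteins that tags particles for uptake and draws in white cells. C1q, built from the products of C1qa, C1qb and C1qc, recognizes the target in the classical pathway, and C4 and C3 are then cleaved and deposited on it. Factor B (Cfb) and properdin (Cfp) form and stabilize the C3-cleaving enzyme of the alternative pathway, while C3ar1 and C5ar1 are the receptors for the small fragments C3a and C5a. In the brain, microglia are a main source of C1q, which is known for its part in the removal of synapses.

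The 3 C1q chains are encoded side by side on the minus strand of chromosome 4 (mm10, GENCODE M21). C1qb lies at chr4:136880129-136886187, C1qc at chr4:136889804-136893065 and C1qa at chr4:136895917-136898803, with 3617 and 2852 bases between neighbours. C3 (chr17:57203970-57228136), C4b (chr17:34728380-34743882) and Cfb (chr17:34856374-34862518) are on chromosome 17, Cfp (chrX:20925454-20931555) on the X chromosome, C3ar1 (chr6:122847138-122856161) on chromosome 6 and C5ar1 (chr7:16246743-16259540) on chromosome 7, all on the minus strand. Cfb lies within the annotated gene Gm20547 on the same strand, and C4b has a near-identical copy, C4a, that is not among the counted genes, so the counts of Cfb and C4b are uncertain as far as reads were shared. RefSeq promoters of build GRCm38.p6 were matched for 6 of the 9 genes (C1qb, C1qc, C3, Cfp, C3ar1 and C5ar1). Their starts are those of RefSeq and can differ from the GENCODE ends above, as for C1qc, whose 250 bases reach into the GENCODE gene. The 250 bases before the start of C1qb (chr4:136886201-136886450) and C1qc (chr4:136892915-136893164) are shown because their levels varied together over the classes while the C1qb share of C1q UMIs did not overlap between genotypes in macrophages. Those of C3 (chr17:57228137-57228386) are shown for contrast, since its levels followed another order of classes. All are written 5′ to 3′ on the gene's strand, with capitals for GAGGAA, the core bound by the myeloid factor PU.1, or TTGCNNAA, a pattern bound by C/EBP factors, searched on both strands.
C1qb: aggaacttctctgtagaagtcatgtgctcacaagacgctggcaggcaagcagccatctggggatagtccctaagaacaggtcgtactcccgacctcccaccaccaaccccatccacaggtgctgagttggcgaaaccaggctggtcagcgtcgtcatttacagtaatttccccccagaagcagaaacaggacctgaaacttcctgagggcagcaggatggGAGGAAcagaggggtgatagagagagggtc
C1qc: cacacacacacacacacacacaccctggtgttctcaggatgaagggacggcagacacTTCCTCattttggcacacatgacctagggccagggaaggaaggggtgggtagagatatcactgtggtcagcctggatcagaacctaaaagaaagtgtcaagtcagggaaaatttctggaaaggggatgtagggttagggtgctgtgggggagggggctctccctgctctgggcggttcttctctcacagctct
C3: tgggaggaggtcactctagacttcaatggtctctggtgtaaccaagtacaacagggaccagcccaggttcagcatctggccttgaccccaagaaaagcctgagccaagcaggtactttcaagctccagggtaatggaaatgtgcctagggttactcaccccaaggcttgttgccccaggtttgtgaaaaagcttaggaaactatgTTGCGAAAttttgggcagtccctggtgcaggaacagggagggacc
GAGGAA began 30 bases before the start of C1qb on its own strand, and its reverse, TTCCTC, stood 193 bases before the start of C1qc. TTGCNNAA matched in C3 45 bases before the start, and neither motif was in the windows of Cfp, C3ar1 or C5ar1. Of all 32851 promoter windows of 250 bases, 23.3% held GAGGAA and 9.56% held TTGCNNAA on either strand, so that these matches describe the letters only.

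The 4 libraries held 3701 to 4708 barcodes and 20908476 to 29849183 UMIs (unique molecular identifiers, 1 per captured RNA molecule). After filters on genes, mitochondrial UMIs and doublets, 13123 of 16289 barcodes were kept, with median depths of 4948 and 4864 UMIs in wtIDH1 replicates 1 and 2 and 3350 and 2693 UMIs in mIDH1 replicates 1 and 2. Throughout, values are listed in this order. The marker gate took 372, 626, 394 and 168 macrophages, 122, 162, 174 and 54 microglia, 673, 344, 322 and 363 monocytes and 74, 118, 645 and 1319 neutrophils. A score cut is a range and not a type: of the 1560 macrophages 129 lay within 0.1 of the cut, as did 19 of 512 microglia, 128 of 1702 monocytes and 217 of 2156 neutrophils. The tumour gate took 11, 8, 53 and 27 cells. Sox2 was read in 45.5, 100, 98.1 and 85.2% of them and Nes in 63.6, 75.0, 100 and 88.9%, while Olig2 had no UMI and Bcan 1. In wtIDH1 replicate 1 Olig1, Ptprz1 and Dcx had 9, 10 and 9 UMIs, beside 9 of Sox2 and 45 of Nes. These cells are thus a Sox2 and Nes group chiefly in the mIDH1 libraries. Of the 99 cells, 79 fell in a cluster led by Rhox5, Krt18 and Cdkn2a, which held 7, 2, 121 and 98 cells in all. Pairs of libraries shared 6 to 25 barcodes, 0.149 to 0.674% of the first library's, and none of the 9 genes gained or lost a call for mIDH1 against wtIDH1 without the 117 kept cells concerned. The labels name 1 run for all libraries, with codes that begin with A for both wtIDH1 and B for both mIDH1 libraries, so whatever these codes stand for and genotype cannot be told apart.

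Among the gated classes, C1q transcripts were highest in microglia, lower in macrophages, and far lower in monocytes and neutrophils. Levels are in CPM, a gene's UMIs over all UMIs of the class in that library on the usual counts-per-million scale. In microglia C1qa stood at 6836 and 8689 CPM in wtIDH1 and 7489 and 9376 CPM in mIDH1. In macrophages it stood at 2925 and 3548 CPM in wtIDH1 and 3264 and 2982 CPM in mIDH1. No macrophage library reached the lowest microglial one. C1qc had the same order, with 4305, 5354, 4525 and 5909 CPM in microglia and 1869, 2224, 2155 and 1971 CPM in macrophages. C1qb was at 2902, 3380.0, 4408 and 6969.9 CPM in microglia and 1798, 1748, 2604 and 2806 CPM in macrophages, which did not overlap either, although the highest macrophage value and the lowest microglial one were close. Monocytes held 636, 501, 451 and 296 CPM of C1qa, 455, 334, 447 and 424 CPM of C1qb and 395, 315, 296 and 203 CPM of C1qc, below every macrophage library. In neutrophils the C1qa values of 477, 573, 264 and 39.8 CPM overlapped those of monocytes, and mIDH1 replicate 2 was the lowest for all 3 chains.

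Tested in a single fit over the classes with library as a block (edgeR quasi-likelihood test, Benjamini-Hochberg adjustment), 6 of the 9 genes differed between macrophages and microglia, where 19.6% of all tested genes did, 9.22% higher and 10.4% lower in macrophages. All 3 C1q chains were lower in macrophages. For C1qa the log2 fold change against microglia was −1.27 ± 0.32 (± SE, here and below) with an adjusted p = 0.00519 and for C1qc −1.19 ± 0.30 with an adjusted p = 0.00461. C1qb was lower by less, at −0.85 ± 0.29 with an adjusted p = 0.0408. This call did not hold without mIDH1 replicate 1 (−0.93, adjusted p = 0.0902), without wtIDH1 replicate 1 (−0.90, 0.0737), without wtIDH1 replicate 2 (−0.77, 0.144), with DESeq2 (−0.95, 0.0647), with at most 5% mitochondrial UMIs (−0.71, 0.099) and with scaling by library totals only (−0.97, 0.0518), in a range of 2.65e-04 to 0.144 over its alternatives. Against monocytes, where 7 of the 9 genes and 30.3% of all genes differed (16.5% higher and 13.7% lower in macrophages), the chains were higher in macrophages by 2.74, 2.34 and 2.73 for C1qa, C1qb and C1qc, with adjusted p-values of 1.24e-06, 2.81e-06 and 4.58e-07. Against neutrophils, where all 9 genes and 58.9% of all genes differed (35.0% higher and 23.9% lower), they were higher by 3.31, 3.77 and 3.50. Over the alternatives, the C1qa difference from monocytes ran from 1.39 to 3.21. That of C1qb ran from 1.15 to 2.71 and that of C1qc from 1.48 to 3.15. Unsupervised clusters overlapped: cluster 6, classed as monocytes, pooled at 1615 CPM of C1qa, and cluster 3, classed as macrophages, at 1476 CPM. The other macrophage clusters pooled at 2194 to 3512 CPM and the other monocyte clusters at 87.3 and 493 CPM.

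**Figure D1:**
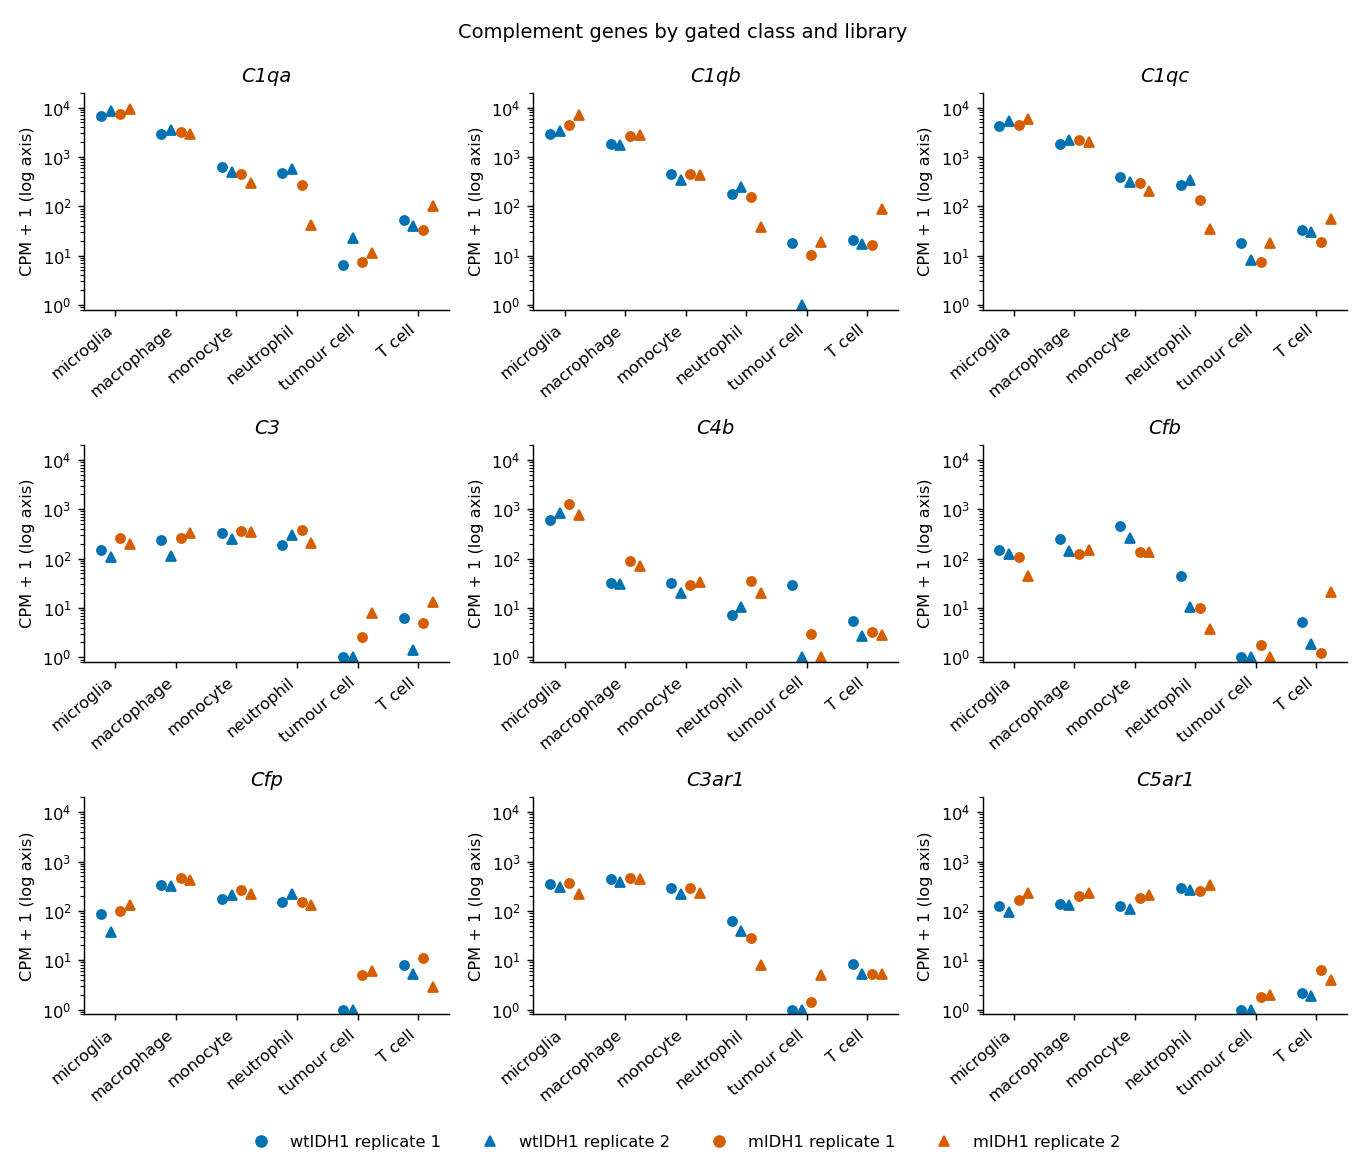
Level of each complement gene (CPM + 1, log axis) in microglia, macrophages, monocytes, neutrophils, tumour-gated cells and, as a background, T cells; each point is 1 library, circles replicate 1 and triangles replicate 2, blue wtIDH1 and orange mIDH1. The C1q chains fall from microglia to macrophages to monocytes, C4b stands at 592 to 1266 CPM in microglia and at 86.7 CPM at most in the other classes drawn, and C5ar1 stays between 95.3 and 334 CPM in all 4 myeloid classes.

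C3, the component on which all pathways converge, was spread over the 4 myeloid classes. It stood in monocytes at 336 and 253 CPM in wtIDH1 and 365 and 347 CPM in mIDH1 and in macrophages at 239 and 112 CPM in wtIDH1 and 261 and 325 CPM in mIDH1. The order of classes differed from that of C1q, since microglia held 149.7, 105, 265 and 196 CPM and neutrophils 183, 296, 371 and 205 CPM, and all 4 classes overlapped. Macrophages were lower than monocytes (edgeR log2 fold change −0.61 ± 0.21, adjusted p = 0.0312) and neutrophils (−0.53 ± 0.23, adjusted p = 0.0486), and the 0.47 against microglia missed the threshold (adjusted p = 0.167) but passed with a stricter gate (0.68, adjusted p = 0.0452). The monocyte call did not hold without mIDH1 replicate 1 (−0.63, adjusted p = 0.0589), without wtIDH1 replicate 1 (−0.66, 0.0592), without wtIDH1 replicate 2 (−0.49, 0.272), with at most 5% mitochondrial UMIs (−0.53, 0.103) and with scaling by library totals only (−0.53, 0.0957), in a range of 0.00156 to 0.272. The neutrophil call did not hold without mIDH1 replicate 1 (−0.45, adjusted p = 0.146), without wtIDH1 replicate 2 (−0.34, 0.355), with at most 5% mitochondrial UMIs (−0.51, 0.101), with scaling by library totals only (−0.22, 0.464) and without the barcodes of more than 1 library (−0.52, 0.052), in a range of 5.11e-04 to 0.464.

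C4b, the classical pathway component cleaved by activated C1, was high in microglia alone among the 5 classes. Microglia held 592 and 850.1 CPM in wtIDH1 and 1266 and 768 CPM in mIDH1. Macrophages held 31.2 and 29.2 CPM in wtIDH1 and 86.7 and 69.2 CPM in mIDH1, and no other myeloid library exceeded 34.5 CPM. The macrophage value was lower than the microglial one by 4.02 on the log2 scale (SE 0.25, edgeR adjusted p = 9.58e-12), and it remained called in all 12 alternatives, from −4.21 to −3.66. Macrophages were higher than monocytes (0.73 ± 0.24, adjusted p = 0.0248) and neutrophils (0.96 ± 0.31, adjusted p = 0.00936). The monocyte call did not hold without mIDH1 replicate 1 (0.45, adjusted p = 0.245), without mIDH1 replicate 2 (0.63, 0.0858), without wtIDH1 replicate 2 (0.73, 0.104), with DESeq2 (0.77, 0.0868), with at most 5% mitochondrial UMIs (0.54, 0.14) and with clusters in place of the gate (0.52, 0.137), in a range of 0.00367 to 0.245. The neutrophil call did not hold without mIDH1 replicate 2 (0.92, adjusted p = 0.0521), with at most 5% mitochondrial UMIs (0.68, 0.0954) and with clusters in place of the gate (0.32, 0.345), in a range of 4.10e-04 to 0.345. The 2 microglial clusters, both with Fcrls, Sparc and Cd81 among their leading genes, pooled at 1165 and 686 CPM of C4b, at median depths of 8285 and 1123 UMIs.

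The alternative pathway genes divided by class. Cfb, the protease subunit of the C3-cleaving enzyme, stood in monocytes at 453 and 259 CPM in wtIDH1 and 137 and 136 CPM in mIDH1, and wtIDH1 replicate 1 was the highest of all. Macrophages held 253, 140.4, 125 and 145 CPM and microglia 151, 121, 105 and 44.0 CPM, while neutrophils, at 42.8, 9.39, 8.96 and 2.67 CPM, lay below every other myeloid library. Cfb was higher in macrophages than in microglia (edgeR log2 fold change 0.71 ± 0.23, adjusted p = 0.0264) and neutrophils (3.81 ± 0.32, adjusted p = 4.51e-10), and the −0.52 against monocytes missed the threshold (adjusted p = 0.0524). The microglia call did not hold without mIDH1 replicate 2 (0.54, adjusted p = 0.0807), without wtIDH1 replicate 1 (0.68, 0.0658), with DESeq2 (0.70, 0.113) and with scaling by library totals only (0.63, 0.0868), in a range of 0.00174 to 0.113, and the monocyte difference passed without mIDH1 replicate 2 (−0.71, adjusted p = 0.00923), with a stricter gate (−0.58, 0.0296), with at most 5% mitochondrial UMIs (−0.55, 0.0366), with clusters in place of the gate (−0.77, 0.00283) and with no filter on low counts (−0.53, 0.0241).

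Cfp, which encodes properdin, the stabilizer of that enzyme, was highest in macrophages, at 333 and 324 CPM in wtIDH1 and 464 and 431 CPM in mIDH1. Monocytes followed at 175, 206, 264 and 221 CPM, overlapped by neutrophils at 153, 221, 151 and 129 CPM. Microglia held 86.0 and 35.9 CPM in wtIDH1 and 97.6 and 132 CPM in mIDH1, below every macrophage and monocyte library and overlapping neutrophils. Macrophages exceeded microglia by 2.35 ± 0.22 on the log2 scale (edgeR adjusted p = 1.24e-08), monocytes by 0.77 ± 0.19 (adjusted p = 0.00298) and neutrophils by 0.999 ± 0.21 (adjusted p = 2.36e-04). The monocyte call did not hold with clusters in place of the gate (0.52, adjusted p = 0.0667). Conventional dendritic cells, antigen-presenting cells outside the 5 classes, held 350.0, 284, 319 and 346 CPM over 21 to 65 cells a library, within the range of monocytes and macrophages, while their C1qa stayed between 4.14 and 64.9 CPM.

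Both anaphylatoxin receptors were read in all 4 myeloid classes, in different orders. C3ar1, the C3a receptor, stood in macrophages at 432 and 379 CPM in wtIDH1 and 463 and 432 CPM in mIDH1. It reached 355, 308, 364 and 215 CPM in microglia, 287, 222, 293 and 233 CPM in monocytes and only 61.1, 37.6, 27.6 and 7.13 CPM in neutrophils, below every other myeloid library. The edgeR test placed macrophages above neutrophils (3.996 ± 0.30, adjusted p = 7.50e-11) and monocytes (0.66 ± 0.22, adjusted p = 0.0222), and the 0.57 against microglia missed the threshold (adjusted p = 0.082). The monocyte call did not hold without mIDH1 replicate 1 (0.68, adjusted p = 0.0542), without wtIDH1 replicate 1 (0.69, 0.0507), without wtIDH1 replicate 2 (0.60, 0.161) and with DESeq2 (0.70, 0.0614), in a range of 0.00228 to 0.161, and the microglia difference passed with a stricter gate (0.65, adjusted p = 0.0177) and with no filter on low counts (0.63, 0.0144). C5ar1, the C5a receptor that draws in neutrophils, was instead highest in neutrophils among the 4 myeloid classes, with 293 and 268 CPM in wtIDH1 and 252 and 334 CPM in mIDH1. Every neutrophil library stood above every library of macrophages, microglia and monocytes. Outside the 5 classes, the 54 and 25 mast cells or basophils of the mIDH1 libraries held 261 and 174 CPM. Macrophages, at 139, 133, 203 and 234 CPM, were lower than neutrophils (−1.002 ± 0.16, adjusted p = 9.07e-06), with differences of 0.35 ± 0.16 from microglia and 0.13 ± 0.15 from monocytes that missed the threshold (adjusted p = 0.147 and 0.555). The microglia difference passed with clusters in place of the gate (0.52, adjusted p = 0.0391).

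Cells of the tumour gate held next to none of these transcripts. In the mIDH1 libraries, whose 53 and 27 tumour-gated cells had median depths of 45902 and 33181 UMIs, the highest values were 18.1 CPM of C1qb (18 UMIs) and 17.1 CPM of C1qc (17 UMIs), both in replicate 2. No UMI of C4b or Cfb was read in that library, which allows a level of up to 3.02 CPM (3 counts of the total, counting error only). In the 11 and 8 wtIDH1 cells the highest value was 28.0 CPM of C4b on 5 UMIs, and genes without a UMI could have been at up to 16.8 and 21.5 CPM. With under 20 cells these libraries entered no test. Against the mIDH1 tumour-gated cells all 9 genes were called higher in macrophages (edgeR), where 63.8% of all genes differed, 26.6% higher and 37.2% lower. The log2 differences ran from 6.43 for C3 to 8.55 for C1qa among the C1q chains, C3 and Cfp, and no fold is given for C4b, C3ar1, Cfb and C5ar1, which rest on 5, 5, 2 and 3 tumour UMIs. T cells, taken as a background, held 52.3, 39.1, 32.2 and 98.2 CPM of C1qa. They held at most 12.1 CPM of the genes other than the C1q chains and Cfb. The tumour-gated levels of C1q lay within or below this background.

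The share of cells with a UMI was taken beside the levels. To compare classes of unequal depth, each cell was thinned to 1000 UMIs, and shallower cells were left out. After thinning C1qa was read in 99.04, 99.3, 93.7 and 100% of microglia and 72.7, 77.8, 62.9 and 55.1% of macrophages, against 4.04, 3.72, 3.25 and 2.10% of T cells. Nearly every microglial cell held C1qa at this depth, and the macrophage shares of both mIDH1 libraries lay below those of both wtIDH1 libraries, while their CPM overlapped. For C1qb the macrophage shares were 67.1, 67.1, 66.6 and 53.2%, close in the first 3 libraries and lowest in mIDH1 replicate 2, although its CPM was higher in both mIDH1 libraries. C4b was read in 36.5, 52.2, 60.4 and 38.6% of microglia and 4.45, 2.97, 8.29 and 5.06% of macrophages, beside 1.19, 0.248, 0.382 and 0.420% of T cells. For C5ar1 the shares were 31.0, 26.6, 20.8 and 25.1% in neutrophils and 15.4, 14.5, 15.4 and 19.6% in macrophages, beside at most 0.248% in T cells. Without thinning, C1qa was read in 90.3, 90.6, 79.4 and 71.4% of macrophages and 17.5, 12.6, 14.0 and 4.62% of T cells, at median depths of 9452 to 10220.0 and 4099 to 5732 UMIs. Unthinned neutrophil shares of C5ar1 were 43.2, 36.4, 36.3 and 49.4% at median depths of 1564 to 2314 UMIs. Thinning left out 146 macrophages, 67 microglia, 17 monocytes and 106 neutrophils.

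**Figure D2:**
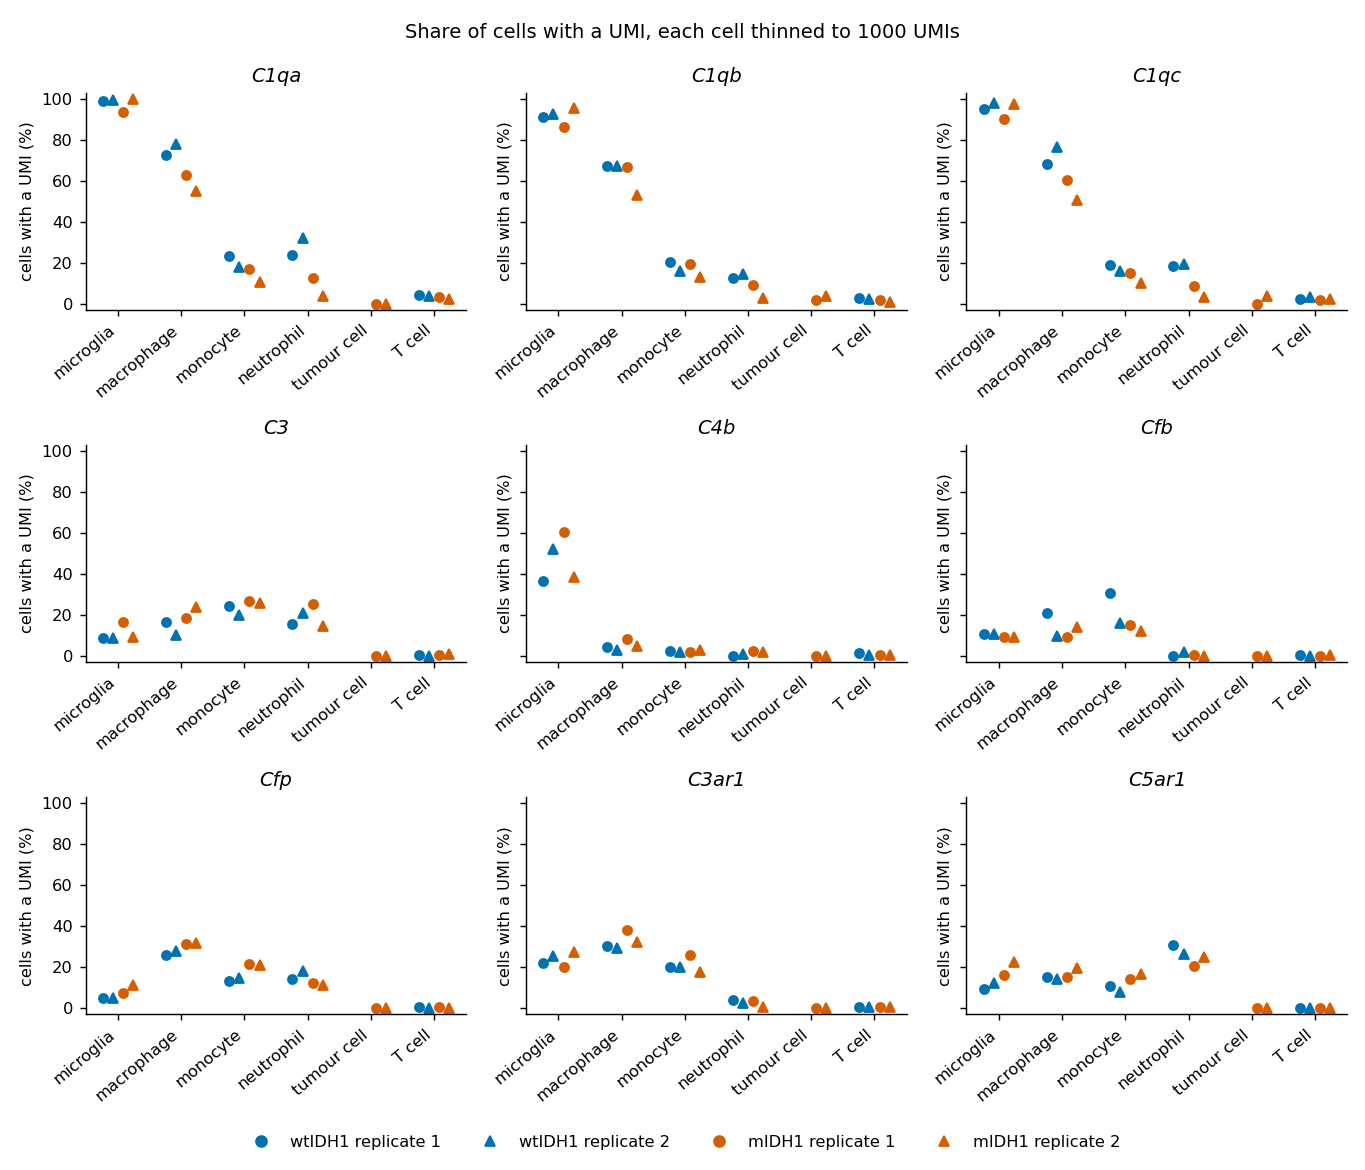
Share of cells with at least 1 UMI of each gene (%) after thinning each cell to 1000 UMIs, by class; each point is 1 library with the same colours and shapes as for the levels, and classes with under 20 thinned cells in a library are not drawn. C1qa was read in over 90% of microglia in all 4 libraries and in 32.1% of cells at most in neutrophils and 4.04% in T cells.

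Over 34 sums of a class in a library, the C1q chains were nearly interchangeable in their pattern, with Pearson's r of 0.98 for each pair on the log2(CPM + 1) scale. Cfp stood apart, with r of 0.41 to 0.43 to the chains, and C3 followed C5ar1 (0.93) more closely than C1qa (0.75). Among 6227 other genes the most alike were Apoe (0.96), Trem2 (0.94) and Hebp1 (0.92) for C1qa, Apoe (0.97), Trem2 (0.95) and Apoc1 (0.91) for C1qb, and Trem2 (0.95), Apoe (0.95) and Plod1 (0.92) for C1qc. For C4b they were Apoc1 (0.94), Pla2g15 (0.88) and Crybb1 (0.88), for C3 Klra2 (0.92), Ninj1 (0.91) and Thbs1 (0.90), and for C5ar1 Slc11a1 (0.95), Klra2 (0.93) and Clec4d (0.93). C3ar1 was most like Msr1 (0.94), Mertk (0.92) and Trem2 (0.92), Cfp most like Cd300a (0.94), Spi1 (0.91), which encodes PU.1, and Btk (0.90), and Cfb most like Acp2 (0.87), Mmp14 (0.86) and Npc2 (0.85). These correlations are descriptions over sums that share libraries and depth.

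Macrophages were compared between tumours with mutant and wild-type IDH1. C4b, C5ar1, C1qb and Cfp were higher in mIDH1, while C1qa, C1qc, C3, C3ar1 and Cfb were not called (edgeR quasi-likelihood test, Benjamini-Hochberg adjusted). The 4 of 9 genes called compare with 7.25% of all 10408 genes tested, and with 5.55% called higher. The median log2 fold change was 0.69 over the 9 genes and −0.02 over all genes. Since 2 libraries a genotype allow no exact permutation p below 0.333, the calls depend on how edgeR models the variance.

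C4b had the largest fold change of the 4. It stood at 31.2 and 29.2 CPM in wtIDH1 and 86.7 and 69.2 CPM in mIDH1. The genotypes did not overlap (log2 fold change 1.62, SE 0.16, adjusted p = 0.00606 by edgeR), and the call held in 15 of 17 alternatives, each single library left out included. C5ar1 stood at 139 and 133 CPM in wtIDH1 and 203 and 234 CPM in mIDH1. Again every mIDH1 library was above both wtIDH1 libraries (log2 fold change 0.93, SE 0.16, adjusted p = 0.0193). This call did not hold without mIDH1 replicate 2 (0.76, adjusted p = 0.099), in a range of 1.06e-05 to 0.13. C1qb stood at 1798 and 1748 CPM in wtIDH1 and 2604 and 2806 CPM in mIDH1. It too did not overlap (log2 fold change 0.85, SE 0.16, adjusted p = 0.0269), whereas its partner chains did, with C1qa at 2925, 3548, 3264 and 2982 CPM and C1qc at 1869, 2224, 2155 and 1971 CPM. Their log2 fold changes were 0.19 ± 0.17 and 0.25 ± 0.16, with adjusted p = 0.52 and 0.37, and C1qa turned to −0.05 when scaled by library totals only, which moved the median of all genes to −0.25. The C1qb call did not hold without mIDH1 replicate 2 (0.74, adjusted p = 0.115), without wtIDH1 replicate 2 (0.81, 0.101) and with clusters in place of the gate (0.42, 0.229), in a range of 7.46e-05 to 0.229.

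Cfp stood at 333 and 324 CPM in wtIDH1 and 464 and 431 CPM in mIDH1. It was higher without overlap (log2 fold change 0.69, SE 0.14, adjusted p = 0.032 by edgeR), with the highest adjusted p of the 4. The call did not hold without mIDH1 replicate 1 (0.69, adjusted p = 0.0799), without mIDH1 replicate 2 (0.68, 0.128), without wtIDH1 replicate 2 (0.64, 0.15), with clusters in place of the gate (0.59, 0.075) and with scaling by library totals only (0.45, 0.0815), in a range of 0.00284 to 0.341. C3, at 239, 112, 261 and 325 CPM, was not called (log2 fold change 0.98, SE 0.34, adjusted p = 0.134). The wtIDH1 libraries lay far from each other, and C3 passed without wtIDH1 replicate 1 (1.66, adjusted p = 4.31e-04) and with no filter on low counts (0.96, 2.36e-06). Cfb (−0.31 ± 0.28) and C3ar1 (0.38 ± 0.15) missed the threshold with adjusted p = 0.553 and 0.173, and Cfb turned to 0.21 without wtIDH1 replicate 1.

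Markers of other cells moved with genotype in these sums. The 11 neutrophil markers, which include S100a8 and S100a9, summed to 299.6 and 411 CPM in wtIDH1 and 1323 and 3383 CPM in mIDH1 in macrophages, with 0 to 2 of them without a UMI. Microglial markers summed to 188 and 193 CPM in wtIDH1 and 173 and 123 CPM in mIDH1. Both sets also serve the gate, which limits their level in macrophages, so they do not measure how many other cells were let in. The part of other cells in the results was not tested. The macrophages also divided differently. Unsupervised clustering without the 9 genes put 52.2 and 53.2% of wtIDH1 macrophages in cluster 2, led by Gpnmb, Apoe and Hmox1, and 49.7 and 58.3% of mIDH1 macrophages in cluster 3, led by Pf4, Ccl7, Ccl24 and Arg1. Cluster 2 held only 14.7 and 19.0% of the mIDH1 macrophages, and cluster 3 only 7.26 and 4.95% of the wtIDH1 ones. Of all 1560 macrophages, 617 fell in cluster 2 and 352 in cluster 3. The rest included 221 in cluster 7, led by Hbb-bs, 118 in cluster 6, led by H2-DMb1, and 93 in cluster 8, led by Adamdec1. A further 101 fell in cluster 20, the microglial cluster that pooled at 686 CPM of C4b.

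Within cluster 2 the log2 fold changes of C4b and C1qb between genotypes were larger than over all macrophages. Over all its cells C4b stood at 55.9 and 35.5 CPM in wtIDH1 and 156 and 131 CPM in mIDH1. C1qb was at 1731 and 1765 CPM in wtIDH1 and 3469.6 and 5038 CPM in mIDH1 and C3 at 255 and 121 CPM in wtIDH1 and 549.7 and 589 CPM in mIDH1, in each case without overlap. Among the gated macrophages of cluster 2 alone, chosen after the data were seen, the log2 fold changes were 2.27 for C4b, 1.59 for C1qb and 2.05 for C3 (edgeR adjusted p = 2.69e-04, 0.0132 and 0.00378). C5ar1 and Cfp were not called there (0.67 and 0.53, adjusted p = 0.0648 and 0.155). In cluster 3 alone none of the 9 was called, where 13 genes in all were, with C4b at 1.94 and C1qb at 0.96 (adjusted p = 0.375 and 0.165). When whole clusters replaced the gate, the log2 fold change of C4b was 0.64, that of C1qb 0.42 and that of Cfp 0.59, all uncalled (adjusted p = 0.164, 0.229 and 0.075), and C5ar1 was the only one of the 4 still called. C1qa was higher in cluster 2 than in cluster 3 of the same library, at 4378 against 1998 CPM in mIDH1 replicate 1 and 5143 against 784 CPM in mIDH1 replicate 2. C5ar1 was higher in cluster 3 in every library, at 166, 154, 221 and 290 CPM against 143, 138, 188 and 175 CPM in cluster 2. Cfp had no such order, at 262, 366, 409 and 346 CPM in cluster 3 and 313, 308, 375 and 400 CPM in cluster 2.

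**Figure D3:**
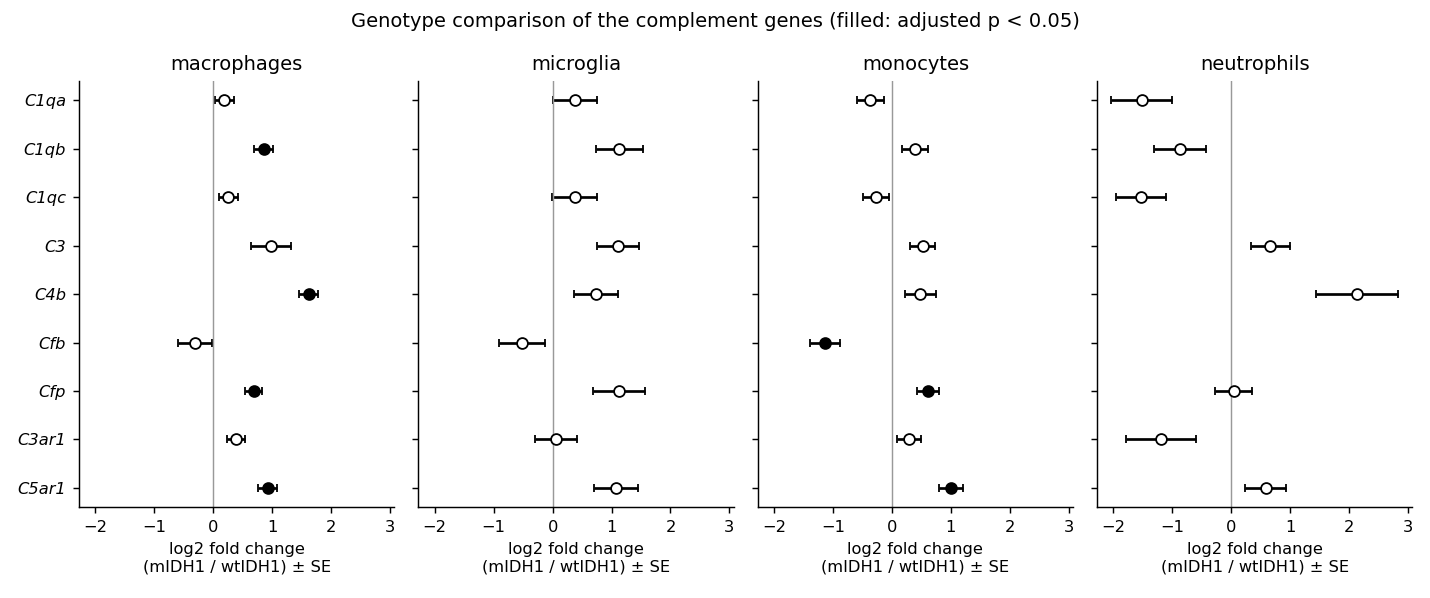
Log2 fold change of mIDH1 against wtIDH1 for each complement gene in macrophages, microglia, monocytes and neutrophils (points; bars are ± 1 SE from edgeR), filled where the adjusted p was under 0.05. C4b, C5ar1, C1qb and Cfp are filled in macrophages, C5ar1, Cfp and Cfb in monocytes, and none in microglia or neutrophils; Cfb was too low to test in neutrophils.

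Microglia showed no complement gene past the threshold: 0 of 9 by edgeR and 0 by DESeq2, with 4 at an unadjusted p under 0.05, where 0.805% of all genes were called, 0.752% higher and 0.0528% lower. The largest differences were in Cfp (1.13 ± 0.44), C1qb (1.13 ± 0.40), C3 (1.11 ± 0.35) and C5ar1 (1.08 ± 0.37), with adjusted p-values of 0.389, 0.309, 0.254 and 0.296. For each of these the mIDH1 libraries lay above both wtIDH1 libraries, with C1qb at 2902 and 3380.0 CPM in wtIDH1 and 4408 and 6969.9 CPM in mIDH1. C1qa overlapped between genotypes, and C4b did too, at 592, 850.1, 1266 and 768 CPM. C1qb passed without mIDH1 replicate 1 (1.52, adjusted p = 0.0202) and Cfp without wtIDH1 replicate 1 (1.90, adjusted p = 0.0248) and with clusters in place of the gate (1.45, 0.0269), while C3ar1, near 0 at 0.06, changed sign without wtIDH1 replicate 2 or mIDH1 replicate 1 (−0.04 and −0.25). Neutrophil markers summed to 529 and 512 CPM in wtIDH1 and 6152 and 10462 CPM in mIDH1 in the microglia, with 0 to 4 of 11 without a UMI, and their part in these values was not tested.

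Monocytes, the blood-derived precursors of many tumour macrophages, showed 3 of 9 genes past the threshold, against 15.0% of all genes tested. C5ar1 and Cfp were higher in mIDH1, as 9.70% of all genes were, and Cfb was lower, as 5.25% were. C5ar1 stood at 125 and 108 CPM in wtIDH1 and 179.7 and 212 CPM in mIDH1. The genotypes did not overlap (log2 fold change 1.01, SE 0.20, adjusted p = 0.00541 by edgeR), and the call held with each of the 4 libraries left out in turn. Cfb stood at 453 and 259 CPM in wtIDH1 and 137 and 136 CPM in mIDH1. It fell in mIDH1 (log2 fold change −1.14, SE 0.25, adjusted p = 0.00908 by edgeR), with both mIDH1 libraries below both wtIDH1 ones, but the wtIDH1 libraries were far apart and the call did not hold without wtIDH1 replicate 1 (−0.63, adjusted p = 0.184), in a range of 4.77e-06 to 0.267.

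Cfp in monocytes stood at 175 and 206 CPM in wtIDH1 and 264 and 221 CPM in mIDH1, without overlap (log2 fold change 0.60, SE 0.19, adjusted p = 0.0434 by edgeR). That call did not hold without wtIDH1 replicate 1 (0.52, adjusted p = 0.32), without wtIDH1 replicate 2 (0.69, 0.134) and with scaling by library totals only (0.35, 0.234), in a range of 0.0194 to 0.343. With clusters in place of the gate none of the 3 was called (C5ar1 0.68, Cfb −0.56, Cfp 0.35, edgeR adjusted p = 0.0563, 0.267 and 0.343). The other genes missed the threshold, with C3 at 0.52 ± 0.21, C4b at 0.48 ± 0.26, C1qb at 0.39 ± 0.22, C1qa at −0.37 ± 0.23 and C1qc at −0.27 ± 0.21. C3 passed without mIDH1 replicate 1 (0.60, adjusted p = 0.0454), and C1qa with scaling by library totals only (−0.61, adjusted p = 0.0452). Scaling by library totals moved the median of all genes to −0.28 in monocytes. Neutrophil markers summed to 306 and 326 CPM in wtIDH1 and 1586 and 2065 CPM in mIDH1 in the monocytes, with 0 to 3 of 11 without a UMI. The 6 macrophage markers summed to 1485 and 1389.5 CPM in wtIDH1 and 2082 and 1562 CPM in mIDH1, all read and without overlap between genotypes. The part of either marker set in these calls was not tested. Of the 673, 344, 322 and 363 monocytes, 28, 17, 102 and 124 fell in cluster 3, led by Pf4, Ccl7, Ccl24 and Arg1. That cluster pooled at 233 CPM of C5ar1, 374 CPM of Cfp and 78.6 CPM of Cfb. Cluster 0, led by Cxcl10, Ly6c2 and Plac8, pooled at 132, 190 and 380 CPM, and the directions were the same in every library. The part of this split in the monocyte calls was not tested.

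In neutrophils 0 of the 8 genes tested passed by edgeR, 3 had an unadjusted p under 0.05, and DESeq2 called 1, C1qc (−1.52, adjusted p = 0.0491), against 0.989% of all genes called by edgeR, 0.638% higher and 0.351% lower. C1qa stood at 477 and 573 CPM in wtIDH1 and 264 and 39.8 CPM in mIDH1 and C1qc at 263 and 338 CPM in wtIDH1 and 135 and 33.6 CPM in mIDH1. Both mIDH1 libraries were below both wtIDH1 libraries but differed from each other, and the log2 fold changes of −1.52 ± 0.52 and −1.53 ± 0.43 had adjusted p = 0.141 and 0.0915. Without mIDH1 replicate 1 all 3 chains passed, with C1qa at −3.08, C1qb at −1.92 and C1qc at −2.53 (edgeR adjusted p = 3.47e-13, 6.48e-05 and 1.30e-07). Apart from that library, C1qa passed without wtIDH1 replicate 1 (−1.61, adjusted p = 0.0385), with no filter on low counts (−1.39, 0.0119) and with scaling by library totals only (−1.82, 3.93e-06), C1qb with scaling by library totals only (−1.21, adjusted p = 0.0341) and C1qc without wtIDH1 replicate 1 (−1.66, adjusted p = 0.0192), with no filter on low counts (−1.39, 0.0121) and with scaling by library totals only (−1.87, 4.27e-05). Scaling by library totals moved the median of all genes to −0.46 in neutrophils. The 6 macrophage markers in neutrophil sums moved in the same direction, at 269 and 225 CPM in wtIDH1 and 183 and 62.7 CPM in mIDH1, with at most 1 of 6 without a UMI, and their part in the C1q values was not tested.

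C5ar1 in neutrophils overlapped between genotypes (log2 fold change 0.58, SE 0.35, adjusted p = 0.391 by edgeR) and passed without mIDH1 replicate 1 (0.89, adjusted p = 0.0455). C3 (0.66 ± 0.32), Cfp (0.04 ± 0.32) and C3ar1 (−1.20 ± 0.59) missed the threshold, and the 2.13 of C4b rests on 1 and 2 UMIs in the wtIDH1 libraries. Whether the genotype effect differed among the 4 myeloid classes was tested as an interaction with library as a block. None of the 9 genes passed by edgeR or DESeq2, 5 had an unadjusted p under 0.05, the adjusted p-values ran from 0.154 (C1qc) to 0.927 (C5ar1), and 0.885% of all genes were called. Without mIDH1 replicate 1 the 3 C1q chains passed (adjusted p = 0.00268, 0.00908 and 0.012 for C1qa, C1qb and C1qc), and with no filter on low counts they did too (6.42e-04, 0.00588 and 0.00327). The calls in macrophages and monocytes are thus not shown to be particular to those classes.

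C1qb made up a larger part of all C1q UMIs in mIDH1 than in wtIDH1 libraries, in each of the 4 myeloid classes. This proportion is taken within a library and class and so does not depend on the scaling between libraries. It was compared after the data were seen. In macrophages C1qb was 27.3 and 23.2% in wtIDH1 and 32.5 and 36.2% in mIDH1, a mean of 25.3 ± 2.85% in wtIDH1 and 34.3 ± 2.62% in mIDH1 (SD, n = 2). Microglia had 20.7 and 19.4% in wtIDH1 and 26.8 and 31.3% in mIDH1. Monocytes had 30.6 and 29.1% in wtIDH1 and 37.4 and 46.0% in mIDH1, the highest of the classes. Neutrophils had 19.3 and 21.5% in wtIDH1 and 27.8 and 33.1% in mIDH1, and the C1q UMIs read in T cells gave 19.2 and 19.4% in wtIDH1 and 23.6 and 36.9% in mIDH1. The genotypes did not overlap in any of these classes. All of them come from the same 4 libraries, so they are not independent comparisons. Mature dendritic cells, with 31.1% in wtIDH1 replicate 1 and 26.4 and 36.1% in the mIDH1 libraries on 122 to 371 C1q UMIs, were an exception among the small classes, as were plasmacytoid dendritic cells, with 42.6% in wtIDH1 replicate 1 and 27.8% in mIDH1 replicate 1 on 68 and 90 C1q UMIs. Over all barcodes as deposited, with no filter or gate, it was 25.6 and 22.5% in wtIDH1 and 30.9 and 36.9% in mIDH1. With 95% Wilson intervals of 25.3 to 26.0, 22.3 to 22.8, 30.6 to 31.2 and 36.4 to 37.5%, the differences over all barcodes exceeded counting error, which is all these intervals cover.

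C1qa took up the smaller part in turn. Its proportion in macrophages was 44.4 and 47.2% in wtIDH1 and 40.7 and 38.4% in mIDH1, a mean of 45.8 ± 1.98% in wtIDH1 and 39.6 ± 1.59% in mIDH1 (SD, n = 2), and over all barcodes 45.9 and 47.9% in wtIDH1 and 42.2 and 37.9% in mIDH1. C1qc stood at 28.4 and 29.6% in wtIDH1 and 26.9 and 25.4% in mIDH1 in macrophages. For C1qb the difference between genotypes had an exact permutation p of 0.333 in each of macrophages, microglia, monocytes, neutrophils and T cells (two-sided, n = 2 a genotype), the smallest the design allows, among 27 such comparisons computed. The 2 mIDH1 libraries also differed from each other, with replicate 2 higher in each of these 5 classes and over all barcodes. Whether the chain proportions follow genotype or another property of the libraries cannot be told apart with this design.

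**Figure D4:**
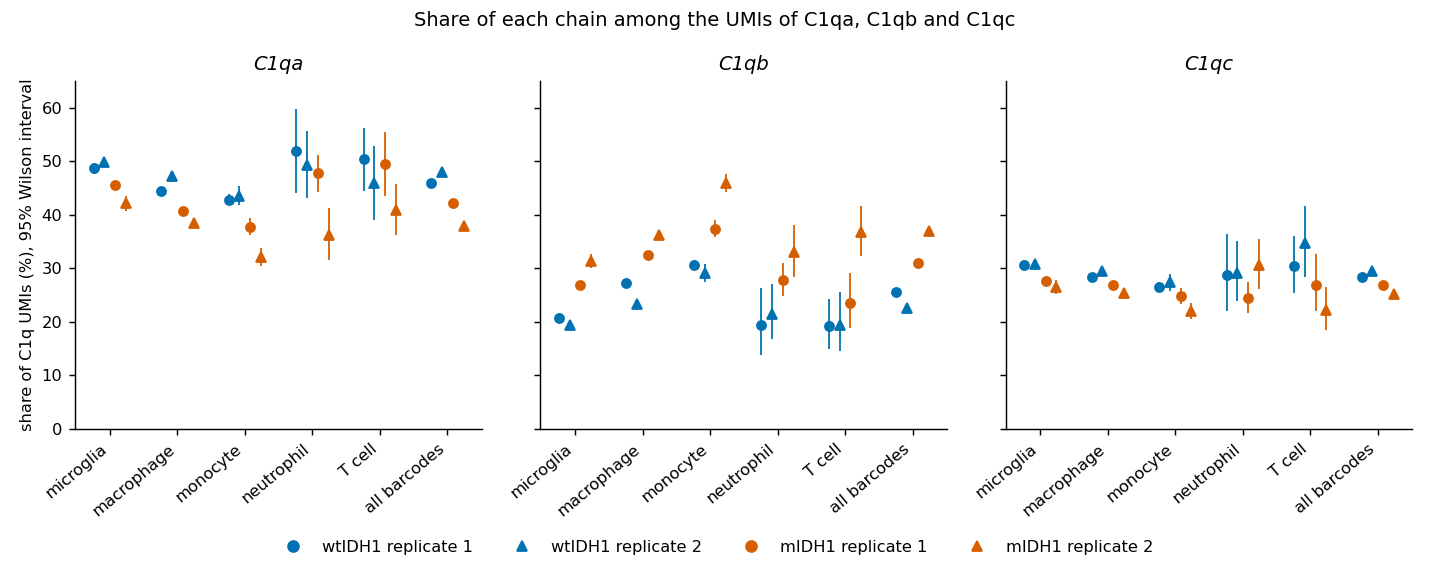
Share of each chain among the UMIs of C1qa, C1qb and C1qc (%) in microglia, macrophages, monocytes, neutrophils, T cells and all deposited barcodes; each point is 1 library, with its 95% Wilson interval for counting error. For C1qb both mIDH1 libraries (orange) lie above both wtIDH1 libraries (blue) in every group shown, at 30.9 and 36.9% against 25.6 and 22.5% over all barcodes.

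Of 42 other complement genes listed (initiation, terminal components, regulators and receptors), 41 were among the counted genes and 8 to 18 were expressed enough to test. Their single calls were not followed over the alternatives. In macrophages 2 were higher and 1 lower of 13 tested, against 5.55% and 1.70% of all genes. Fcna, which encodes a ficolin of the lectin pathway, was higher, at 1.35 and 1.40 CPM in wtIDH1 and 25.1 and 16.2 CPM in mIDH1 (log2 fold change 4.15, SE 0.34, adjusted p = 0.00361 by edgeR). These levels rest on 6 and 10 UMIs in wtIDH1 and 123 and 30 UMIs in mIDH1, so the size of the fold is uncertain. Itgax, a chain of the complement receptor CD11c/CD18 that is also a dendritic cell marker, fell, at 229.8 and 277 CPM in wtIDH1 and 59.9 and 65.9 CPM in mIDH1 (log2 fold change −1.78, SE 0.17, adjusted p = 0.00476 by edgeR).

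Monocytes had 2 higher and 1 lower of 9 tested, against 9.70% and 5.25% of all genes. Itgax fell there too, at 222 and 210.0 CPM in wtIDH1 and 71.6 and 52.7 CPM in mIDH1 (log2 fold change −1.55, SE 0.19, adjusted p = 2.68e-04 by edgeR). Cd93, long studied as a candidate C1q receptor, stood at 62.7 and 82.7 CPM in wtIDH1 and 115 and 136 CPM in mIDH1 (log2 fold change 1.07, SE 0.20, adjusted p = 0.00404), and Itgb2, the chain that pairs with Itgax and Itgam, at 368 and 318 CPM in wtIDH1 and 501 and 507 CPM in mIDH1 (log2 fold change 0.81, SE 0.21, adjusted p = 0.0177), both by edgeR. In microglia 0 of 11 and in neutrophils 0 of 8 passed by edgeR and by DESeq2, with 1 and 2 at an unadjusted p under 0.05. Between macrophages and microglia 8 of 18 tested differed, against 19.6% of all genes. Among those of lowest p were C2 (−2.88 ± 0.38) and Masp1 (−4.49 ± 0.61), higher in microglia, and Cd93 (3.23 ± 0.30), higher in macrophages, with edgeR adjusted p-values of 2.66e-06, 9.67e-06 and 1.14e-08. C2, which encodes the protease that pairs with C4b in the classical C3-cleaving enzyme, and Masp1, a protease of the lectin pathway, thus went with C4b and the C1q chains in being higher in microglia. Against monocytes, 8 of 18 differed, where 30.3% of all genes did, led by Fcna (4.57 ± 0.49), C1qbp (1.23 ± 0.19), Cd93 (1.28 ± 0.23) and C1ra (0.97 ± 0.19), a subunit of the C1 protease, all higher in macrophages. Against neutrophils, 14 of 18 differed, where 58.9% of all genes did, with Cd93 (2.63 ± 0.30), C1ra (3.20 ± 0.37) and C1qbp (2.31 ± 0.29) higher in macrophages and C5ar2, another C5a receptor (−1.55 ± 0.19), lower. Against the tumour-gated cells 14 of 18 differed, where 63.8% of all genes did, with Itgb2 (6.52 ± 0.34), Itgam (7.002 ± 0.40) and Itgax (7.79 ± 0.56) higher in macrophages and Clu, which encodes the fluid-phase regulator clusterin (−8.84 ± 0.37), lower.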

How the data were processed

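Droplet single-cell RNA was read in 4 libraries, 2 from wtIDH1 and 2 from mIDH1 tumours. The deposited values are raw UMI counts per gene and barcode, made with Cell Ranger 3.1 (STAR, mm10) per the labels' protocols and written by software version 3.0.0 per the file headers. An aggregation to equal depth is also described in the labels' protocols, but the separate deposited count matrices have unequal totals. How strand was used in counting is not given in the sources used here.

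Barcodes with under 200 genes or over 10% mitochondrial UMIs were left out, as were 0.8% of cells per 1000 barcodes with the highest Scrublet doublet scores, because the automatic doublet threshold marked only 1 to 3 barcodes a library. Cells were gated by mean standardized marker scores (16 marker lists; score at least 0.3, margin 0.2, 2 markers detected), and 9210 of 13123 were gated. Clusters came from scanpy 1.11.5 (Leiden, resolution 1, 2000 variable genes without the 9 complement genes, 30 components, 15 neighbours). Counts were summed per library and class, and classes under 20 cells in a library were not tested.

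Sums were tested with edgeR 4.0.16 (quasi-likelihood, TMM, filterByExpr, R 4.3.3), with Benjamini-Hochberg adjustment over all genes tested and a threshold of 0.05. Log2 fold changes follow TMM scaling and so differ from ratios of CPM. Class comparisons used library as a block. DESeq2 1.42.0 and the other alternatives are in the closing section. The tests were also run on simulated sums with a fixed spread setting for all genes, which does not check the calls in these data. All 9 complement genes were named whatever their result, with up to 4 other complement genes of lowest p per comparison and the 3 genes most correlated with each; 1 of the other complement genes is not reported here. Members and lists were chosen with earlier results of these data known. The replicate numbers were not taken as pairs, since deviations of same-numbered libraries correlated by −0.19 in macrophages, −0.12 in microglia, 0.04 in monocytes and −0.003 in neutrophils. Intervals and floors (3 counts) cover counting error only. The tumour gate was not compared between genotypes, for want of wtIDH1 cells.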

Additional observations from a re-analysis of the deposited data

Results flagged for a closer look

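C4b was read at a high level outside the classes compared. In the 17 cells gated as oligodendrocytes, the myelin-forming cells of the brain, it pooled at 2292 CPM on 412 UMIs, above the T-cell background. The 8 and 3 such cells of the wtIDH1 libraries held 2019 and 1807 CPM, and the 6 of mIDH1 replicate 1 held 2569 CPM. No cell of mIDH1 replicate 2 was so gated. The microglia of the libraries held 592 to 1266 CPM. C1qa pooled at 356 CPM on 64 UMIs in the 17 cells, with 54 of these UMIs in wtIDH1 replicate 2. The part of RNA of other cells in the C4b level was not tested. The 17 cells are too few for a test between classes or genotypes.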

How the results depend on the processing

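Of 946 alternative values of the 9 genes' log2 fold changes, 841 kept their direction and side of the threshold, 59 lost and 32 gained a call, and 14 changed sign, all of them uncalled differences. In each sentence on counts below the number is of all genes called, and the cause of a change was not tested. With library totals only, which moved the median of all genes to −0.25 in macrophages, −0.23 in microglia, −0.28 in monocytes and −0.46 in neutrophils, C1qa in macrophages turned to −0.052, C3ar1 in microglia to −0.17 and Cfp in neutrophils to −0.44, and 27 genes were called in microglia, 2185 in monocytes and 330 in neutrophils, against 61, 1410 and 62. Higher and lower calls were then 391 and 632 in macrophages (578 and 177 as reported), 589 and 1596 in monocytes (915 and 495), 68 and 262 in neutrophils (40 and 22), 773 and 1351 for macrophages against microglia (1080 and 1220) and 5422 and 2049 against neutrophils (4099 and 2796). With at most 5% mitochondrial UMIs C3ar1 in microglia was −0.15. With clusters in place of the gate C1qa and C1qc in macrophages were −0.29 and −0.21, C3ar1 in monocytes −0.26 and Cfp in neutrophils −0.051, and 253 genes were called in microglia, 757 in monocytes, 18 in neutrophils and 146 in the interaction (90 as reported). With no filter on low counts the calls were 1702 in macrophages (755 as reported), 194 in microglia, 351 in neutrophils and 351 in the interaction. DESeq2 called 131 in neutrophils and 136 in the interaction, and the stricter gate 10 and 154. With RNA of other cells subtracted, 0 genes were called in microglia by edgeR (204 at an unadjusted p under 0.05) and 1 in neutrophils; the estimated share of such RNA was 83.5% in the microglia of mIDH1 replicate 1. Cluster 2 alone gave 331 calls in macrophages, with Cfb at 0.58, and cluster 3 alone 13.

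Leaving out each library in turn gave 136 to 1008 calls in macrophages, 51 to 217 in microglia, 482 to 2309 in monocytes, 63 to 550 in neutrophils, 1260 to 2216 for macrophages against microglia, 1996 to 3152 against monocytes, 5188 to 6321 against neutrophils, 5061 to 7105 against tumour-gated cells and 18 to 65 in the interaction. A lone library was then assumed to vary like the other genotype's. The lowest macrophage count was without mIDH1 replicate 2 (136), with 383 without wtIDH1 replicate 2 and 456 without mIDH1 replicate 1. Monocytes had 482 without wtIDH1 replicate 1, 755 without mIDH1 replicate 2 and 2309 without mIDH1 replicate 1. Microglia had 204 without wtIDH1 replicate 1, 217 without mIDH1 replicate 1 and 141 without mIDH1 replicate 2. Neutrophils had 100 without wtIDH1 replicate 1, 550 without mIDH1 replicate 1 and 162 without mIDH1 replicate 2. Without wtIDH1 replicate 2 there were 1260 calls against microglia, 1996 against monocytes and 18 in the interaction, which had 35 without mIDH1 replicate 2. Over the same omissions Cfb in macrophages ran from −0.69 to 0.21, C3ar1 in microglia from −0.25 to 0.28 and Cfp in neutrophils from −0.15 to 0.36. Of the 9 genes, Cfb in macrophages turned to 0.21 and Cfp in neutrophils to −0.15 without wtIDH1 replicate 1, C3ar1 in microglia to −0.042 without wtIDH1 replicate 2 and to −0.25 without mIDH1 replicate 1, and Cfp in neutrophils to −0.096 without mIDH1 replicate 2.

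With the replicate number as a block, 648 genes were called in macrophages, 85 in microglia, 2073 in monocytes and 178 in neutrophils. Under the block C1qb (adjusted p = 0.0701) and Cfp (0.0619) were not called in macrophages, and C1qa (−1.88, 0.0378) and C1qc (−1.70, 0.0289) were called in neutrophils (edgeR). A block on the crossed pairing, chosen after seeing the data, gave 1198 calls in macrophages and 46 in microglia. The tumour gate gave no genotype comparison and, when stricter, no class comparison. Depth limits the tumour gate (11 and 8 wtIDH1 cells), the microglia of mIDH1 replicate 2 (54 cells, median 1765 UMIs) and the neutrophils, where Cfb could not be tested and C4b had 1 and 2 UMIs in wtIDH1.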

Other observations

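Among cells outside the 5 classes, C1qa in NK cells, cytotoxic lymphocytes, stood at 179 and 57.1 CPM in the wtIDH1 libraries and 270 and 31.8 CPM in the mIDH1 libraries, so the spread within a genotype exceeded any difference between them. Endothelial-gated cells held 328 and 399 CPM and 729 and 373 CPM of C1qa over 20 to 40 cells, and 5.09 to 10.2 CPM of C4b. Of these 117 cells, 31 fell in cluster 3 and 27 in cluster 6, where macrophages and monocytes prevailed. Only 16 fell in cluster 14, the one classed as endothelial, which pooled at 11.8 CPM of C1qa. Cluster 14 also held 6 tumour-gated and 23 ungated cells, and its cells came only from the wtIDH1 libraries. The part of other cells in the C1qa level of the endothelial gate was not tested.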
